A study of Mus musculus with 19 samples.

Results

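The cells described here are the non-naive T cells of 3 spleens from mice carrying the A223 tumour, compared between 1 mouse in which the tumour grew and 2 in which it regressed. They were chosen as the cells of the spleen libraries that the authors had not placed in the clusters named Naive 1, Naive 2 or Naive 3. There were 6652 such cells of 16557 spleen cells and of 41099 cells in the whole series: 1192 in growing spleen 3, 2602 in regressing spleen 2 and 2858 in regressing spleen 3, where the numbers are those of the labels. A223 is a transplanted mouse squamous cell carcinoma that the labels call derived from C57BL/6, and it was injected into C57BL/6J mice. No further treatment and no age is named in the sources used here. All 3 spleen libraries were made with the 5′ single-cell kit, and T cell receptors were read from a part of the same material. The labels' protocol describes the sort for CD8 T cells for tumours only. Gene expression per cell was not used here, so the authors' cluster names could not be checked against marker genes.

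CD8 T cells kill cells that show their antigen, and a naive one has not yet met it. After activation in a lymphoid organ such as the spleen, a T cell divides, changes its programme and can leave for the tissue that holds the antigen. Long stimulation leads to exhaustion, a state with inhibitory receptors and reduced function. Interferon-stimulated cells carry the transcripts that interferon induces, and NKT-like cells share features with natural killer T cells, which have a restricted receptor. Each clone has its own receptor, an alpha and a beta chain whose CDR3 loops touch the antigen. GLIPH is a method that groups receptors by similar CDR3 sequences, on the premise that similar receptors can see the same antigen.

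With 1 growing spleen no test was run, since an exact two-sided permutation of 1 library against 2 cannot go below p = 0.33 on the absolute difference, or 0.67 with the smaller tail doubled. Each share is therefore given with its exact Clopper-Pearson 95% interval. The interval covers counting error only, with cells taken as independent, and not the difference between mice. Cells of a clone share their receptor, so the intervals of receptor shares can be too narrow. A direction is stated only where the growing spleen lay outside both regressing spleens. With 3 libraries, a given one lies outside the others more often than not even without a difference between the states. Where 3 values stand together, they are those of growing spleen 3, regressing spleen 2 and regressing spleen 3, unless another order is named. The libraries held 27004477, 35229416 and 41908594 UMIs (counted RNA molecules) in growing spleen 3 and regressing spleens 2 and 3. Non-naive cells were 30.3%, 39.4% and 47.5% of their cells. Pairs of spleen libraries had 31 to 68 cell barcodes in common, and spleen and tumour libraries of the same number had 8 to 59, at most 1.13% of the smaller library in any pair.

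Few cells of the growing spleen had a receptor of the similarity groups. How the authors chose the 10 groups was not given in the sources used here. If they were chosen by clone size in these libraries, their cover is not an independent measure. Of the non-naive cells with a receptor label, 12 of 852 belonged to one of the 10 GLIPH groups in the growing spleen, or 1.41% (0.730 to 2.45). In the regressing spleens it was 293 of 1670, or 17.5% (15.7 to 19.5), and 368 of 1938, or 19.0% (17.3 to 20.8). The growing spleen was 16.1 percentage points below the nearer regressing spleen, and the regressing spleens were 1.44 points apart. Receptor labels were present on 71.5% of non-naive cells in the growing spleen and on 64.2% and 67.8% in the regressing spleens.

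The groups differ in how many receptors they join, as the named clonotypes of the tumours show; the clonotypes of spleen cells carry no name. Group 1 joined 11 named clonotypes with 5 beta chains, and 7 of the 11 had the same beta chain. Its largest named clonotype was found in regressing tumour 2 and in none of the other 3 tumours with receptor labels. Group 2 joined 3 named clonotypes, all with the same beta chain, and 1 of them made up 85.9% of the group's tumour cells. Group 4 had 1 named clonotype, which made up 90.4% of its tumour cells.

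Group 1 held 184 labelled non-naive cells in regressing spleen 2 (11.02%, 9.56 to 12.6) and 239 in regressing spleen 3 (12.3%, 10.9 to 13.9), against 2 in the growing spleen (0.235%, 0.0284 to 0.845). It was the only group with more than 1% in both regressing spleens. Groups 2, 4, 5 and 9 were found mainly in 1 regressing spleen. Group 2 had 106 cells in regressing spleen 3 (5.47%) and 0 in both other spleens, which allows up to 0.180% in regressing spleen 2 and 0.352% in the growing spleen. Group 9 had 62 cells in regressing spleen 2 (3.71%), 1 in regressing spleen 3 and 1 in the growing spleen. Group 5 had 24 cells in regressing spleen 2 (1.44%), 1 in regressing spleen 3 and 5 in the growing spleen, and Group 4 had 12 cells in regressing spleen 2 (0.719%) and 0 in the others. Group 3 had 2, 10 and 1 cells, and Group 10 had 4, 10 and 3, the order being regressing spleens 2 and 3 and then the growing spleen. As shares in this order, Group 3 was at 0.120%, 0.516% and 0.117%. Group 10 was at 0.240%, 0.516% and 0.352%, so the growing spleen lay between. Groups 5 and 9, at 0.587% and 0.117% in the growing spleen, were each at 0.0516% in regressing spleen 3. Groups 6, 7 and 8 had at most 3 cells in any spleen.

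These groups followed the tumours of the same number in part. Regressing tumour 2 had 28.5% of its labelled non-naive cells in Group 1 and 7.20% in Group 9, and regressing tumour 3 had 51.6% in Group 2. Group 1 was smaller in regressing tumour 3, at 5.71%, than in regressing spleen 3. In growing tumour 3, 52.9% (50.1 to 55.7) of labelled non-naive cells were in a group, which lay between 46.6% (45.1 to 48.2) and 67.1% (65.7 to 68.4) in regressing tumours 2 and 3. The growing spleen was thus far below the regressing spleens while growing tumour 3 was not below both regressing tumours. The largest groups of growing tumour 3 were Group 4 with 19.9%, Group 5 with 13.1%, Group 7 with 7.32% and Group 1 with 6.83%. In the growing spleen these groups had 0, 5, 0 and 2 cells of 852. Whether the difference between spleen and tumour differs between the states was not tested.

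**Figure D1:**
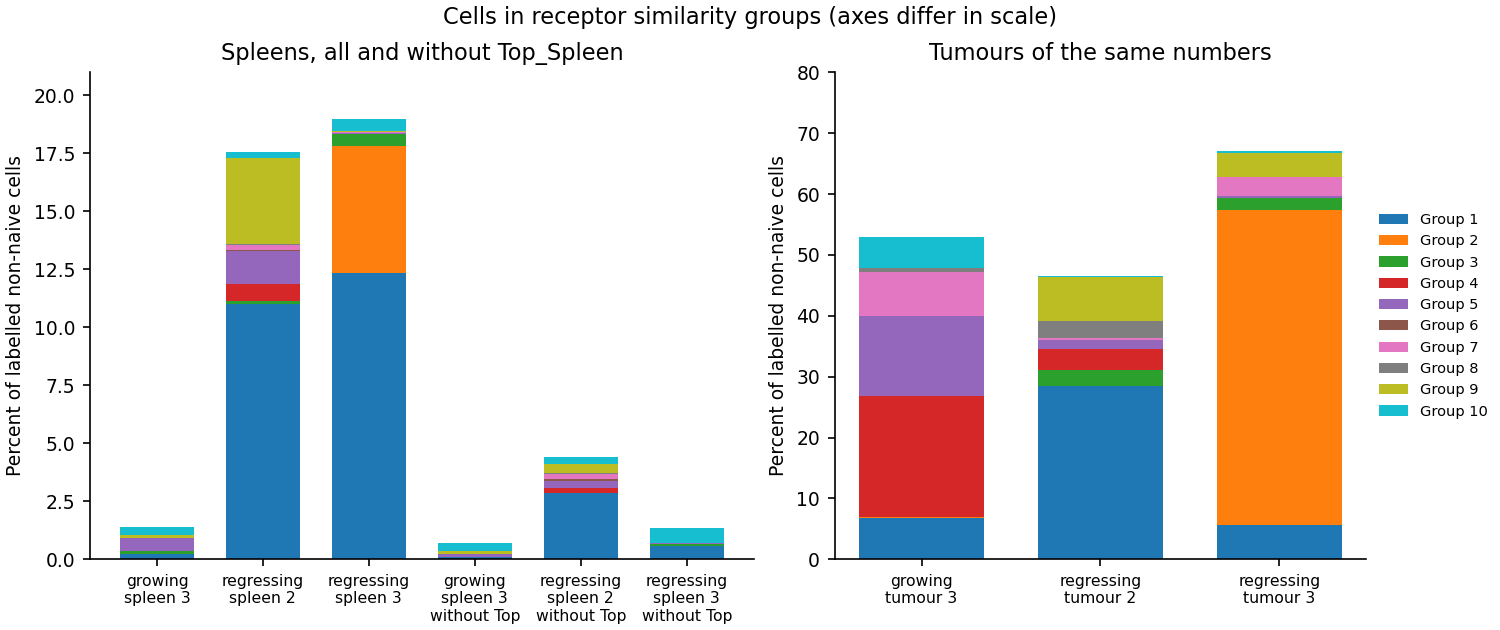
Percent of receptor-labelled non-naive cells in each of the 10 GLIPH groups, as stacked bars for the spleens (left, all cells and then without Top_Spleen cells) and for the tumours of the same numbers (right, on a longer axis). The growing spleen stands at 1.41% against 17.5% and 19.0%, and Group 1 is the main part of both regressing bars.

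In the regressing spleens most of this cover lay in cells that the authors labelled Top_Spleen, a pooled clonotype label; its rule was not given in the sources used here. If the label was given by clone size in these spleens, its share is not an independent measure. It was carried by 10 labelled non-naive cells of the growing spleen (1.17%, 0.564 to 2.15), 308 of regressing spleen 2 (18.4%, 16.6 to 20.4) and 396 of regressing spleen 3 (20.4%, 18.7 to 22.3). Only 2 Top_Spleen cells in all 3 spleens were in a Naive cluster. In a GLIPH group were 6 of 10, 233 of 308 and 347 of 396 Top_Spleen cells. Without them the cover was 0.713% (0.262 to 1.54) in the growing spleen, 4.41% (3.38 to 5.63) in regressing spleen 2 and 1.36% (0.845 to 2.07) in regressing spleen 3. The growing spleen was still lowest, but its interval overlapped that of regressing spleen 3, and the regressing spleens then differed by 3.04 points. Naive cells, as a background, had a cover of 0.584%, 1.50% and 0.545% in the same order.

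The receptor groups were unevenly spread over the clusters. Among labelled Activated Exhausted cells, 74 of 128 (57.8%) and 89 of 150 (59.3%) were in a group in regressing spleens 2 and 3, against 2 of 39 (5.13%) in the growing spleen. Among Alternative Exhausted cells it was 50 of 95 and 31 of 76 against 1 of 36. Initial Activation cells were in a group in 33.5% and 38.8% of labelled cells in the regressing spleens and in 0 of 68 in the growing spleen. Intermediate Activation cells followed with 17.5% and 20.7% against 1.08%. Highest Activated cells had few in any spleen (1.75% and 0.849% against 0 of 210), as had NKT-like cells (4 of 127 and 0 of 160 against 0 of 29). With a common mix of clusters, the cover was 1.66%, 17.9% and 19.0%.

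In cluster shares, the growing spleen lay outside both regressing spleens in 9 of the 10 non-naive clusters (90% of clusters), above them in 2 (20%) and below them in 7 (70%). Without Top_Spleen cells it was 8 (80%), 1 (10%) and 7 (70%). These 7 included Dividing 1 and Highest Activated, which were only 0.0244 and 0.338 points below the nearer regressing spleen. A given library of the 3 is highest or lowest more often than not without any difference between the states, so high counts are usual. The shares also add to a fixed total, so the clusters are not separate results: where 1 cluster takes more of the total, the others take less.

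Cells at Intermediate Activation were the largest cluster in the growing spleen and took up a greater share there than in either regressing spleen. They made up 44.6% of its non-naive cells (41.8 to 47.5), against 29.1% (27.4 to 30.9) in regressing spleen 2 and 25.8% (24.2 to 27.4) in regressing spleen 3, a ratio of 1.63 to the regressing mean. The gap of 15.5 percentage points to the nearer regressing spleen compared with 3.34 points between the regressing spleens. Without Top_Spleen cells the shares were nearly the same, at 44.8%, 29.6% and 25.7%. This share depends on the base: of all spleen cells the cluster held 13.5%, 11.5% and 12.2%, and for every 100 naive cells there were 19.4, 19.0 and 23.3. Relative to naive cells, the growing spleen therefore held no more Intermediate Activation cells than regressing spleen 3, and fewer cells of each of the other 9 non-naive clusters than either regressing spleen.

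Exhausted cells, counted over both clusters named Exhausted, were rarer in the growing spleen. They made up 8.14% of non-naive cells (6.65 to 9.84) against 15.1% (13.7 to 16.5) and 12.2% (11.03 to 13.5) in regressing spleens 2 and 3. Activated Exhausted cells gave most of this, at 3.94% (2.91 to 5.21) against 9.15% (8.07 to 10.3) and 7.56% (6.62 to 8.59). Alternative Exhausted cells were at 4.19%, 5.96% and 4.65%, with intervals that overlapped. After Top_Spleen cells were taken out, the exhausted share was 7.95% in the growing spleen and 11.4% and 9.02% in the regressing spleens, and the growing spleen no longer lay outside both for Alternative Exhausted cells (4.06%, 4.32% and 4.02%).

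The direction turned among cells with a receptor label that were not Top_Spleen, a base chosen after the data were examined. There, 72 of 842 cells of the growing spleen were exhausted, 8.55% (6.75 to 10.6), against 92 of 1362 (6.75%, 5.48 to 8.22) and 99 of 1542 (6.42%, 5.25 to 7.76) in the regressing spleens. The Top_Spleen cells of the regressing spleens were exhausted in 42.5% and 32.1%. The cells with no receptor label were exhausted in 6.47% of 340 in the growing spleen (4.10 to 9.63), 18.2% of 932 (15.8 to 20.9) and 13.4% of 920 (11.2 to 15.7). Unlabelled cells thus stayed in the base when Top_Spleen cells were taken out, and the remaining difference was seen among them and not among the labelled cells. In Activated Exhausted cells a receptor label was present on 83.0% of cells in the growing spleen, 53.8% in regressing spleen 2 and 69.4% in regressing spleen 3; which clones the unlabelled cells belonged to was not tested.

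Initial Activation cells, which by their name have just begun to respond, made up 8.22% of non-naive cells in the growing spleen (6.72 to 9.93), 9.57% (8.47 to 10.8) in regressing spleen 2 and 15.1% (13.8 to 16.5) in regressing spleen 3. The regressing spleens differed from each other by 5.55 points, more than the growing spleen differed from the nearer of them. Less the Top_Spleen cells, the growing spleen, at 8.21%, lay between 7.80% and 12.3%. Of Top_Spleen cells, 22.7% and 32.3% were at Initial Activation in regressing spleens 2 and 3.

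Interferon-stimulated and NKT-like cells were less frequent in the growing spleen, with and without Top_Spleen cells. The interferon-stimulated cluster held 6.12% (4.83 to 7.64) against 8.84% (7.78 to 10.0) and 9.20% (8.17 to 10.3), and 6.18%, 9.68% and 10.1% without Top_Spleen cells. NKT-like cells were at 3.69% (2.69 to 4.92) against 7.46% (6.48 to 8.53) and 8.71% (7.70 to 9.81), and no NKT-like cell carried the Top_Spleen label in any spleen. Their shares without that label were 3.72%, 8.46% and 10.1%. Of Top_Spleen cells, only 2.60% and 3.54% were interferon-stimulated in regressing spleens 2 and 3. Taking Top_Spleen cells out therefore had to raise the regressing shares of both clusters, so it is no separate check. For both clusters the distance from the growing to the nearer regressing spleen was larger than that between the regressing spleens. Outside the Intermediate Activation cluster, a base chosen after the data were examined, interferon-stimulated cells were at 11.1%, 12.5% and 12.4%, a narrower gap, and NKT-like cells at 6.67%, 10.5% and 11.7%.

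Highest Activated cells differed little. They made up 23.7% (21.4 to 26.3), 21.6% (19.99 to 23.2) and 21.8% (20.3 to 23.4), with overlapping intervals, and without Top_Spleen cells the order turned, to 23.9%, 24.3% and 25.2%. Only 4 and 3 Top_Spleen cells of the regressing spleens were Highest Activated. Outside the Intermediate Activation cluster, Highest Activated cells were at 42.9% in the growing spleen against 30.4% and 29.4%.

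The 3 Dividing clusters together held 65 cells of the growing spleen, 5.45% (4.23 to 6.90), against 8.34% (7.31 to 9.47) and 7.17% (6.25 to 8.18) in regressing spleens 2 and 3. The difference lay in Dividing 2, a mix of S and G2M calls, and in Dividing 3, whose cells were mostly called G2M. Dividing 2 held 1.17% against 2.31% and 2.24%, and Dividing 3 held 0.755% against 2.04% and 1.75%. Dividing 1, the cluster of S-phase calls, was at 3.52% between 3.997% and 3.18%. The shares of the 3 together without Top_Spleen cells were 5.25%, 8.72% and 7.55%. Among cells outside the Intermediate Activation cluster the growing spleen, at 9.85%, lay between 11.8% and 9.67%, so the lower share of dividing cells was not seen on that base.

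**Figure D2:**
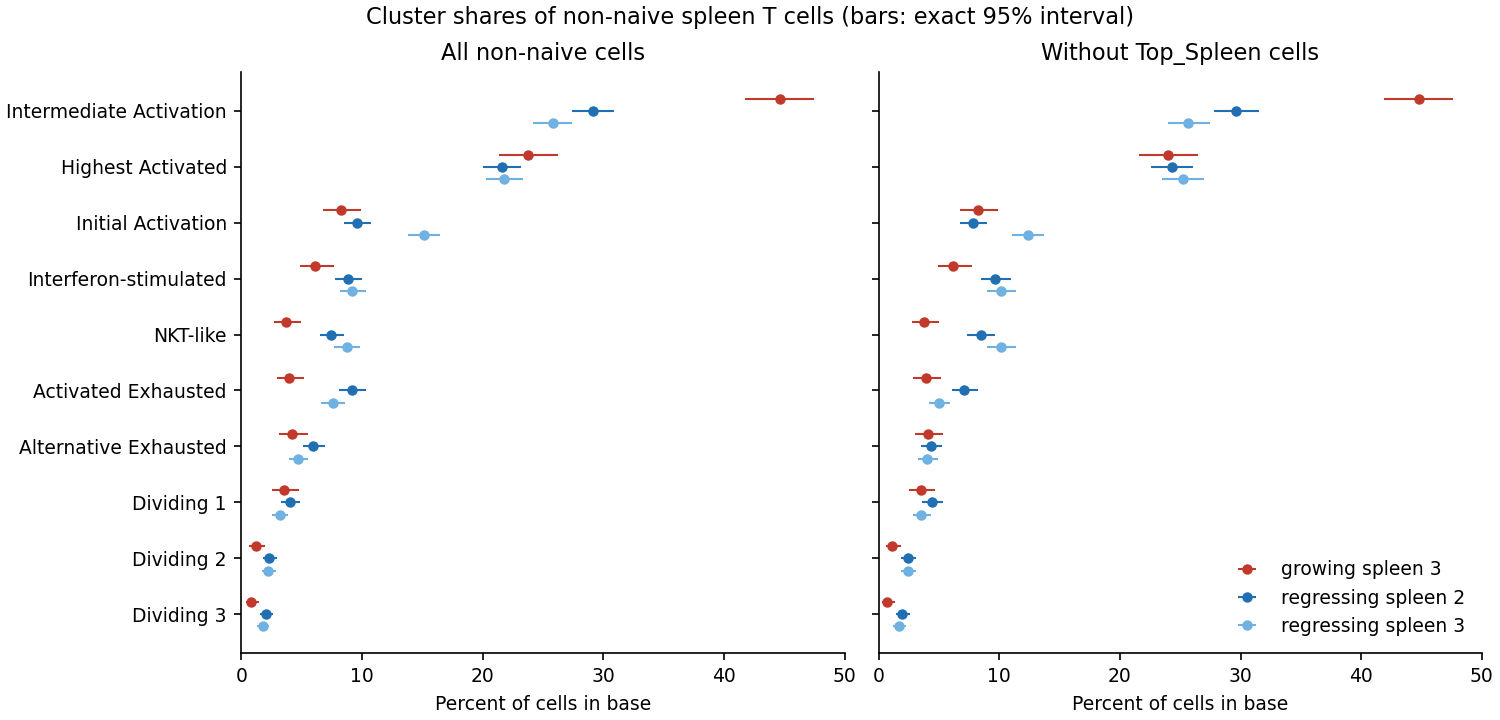
Shares of the 10 non-naive clusters in each spleen library, in percent of non-naive cells (left) and of non-naive cells without Top_Spleen cells (right), with exact 95% intervals. Intermediate Activation stands at 44.6% in the growing spleen against 29.1% and 25.8%, and the Activated Exhausted points move closer together on the right.

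Calls of cell-cycle phase held more G1 and fewer S and G2M cells in the growing spleen. Phase is called from scores of genes for DNA synthesis (S) and for mitosis (G2M), and cells low in both are called G1. G1 calls made up 73.4% of non-naive cells in the growing spleen (70.8 to 75.9) against 67.8% (65.9 to 69.5) and 67.5% (65.7 to 69.2). S calls made up 20.7% (18.5 to 23.1) against 24.8% (23.1 to 26.5) and 24.6% (23.0 to 26.2). G2M calls made up 5.87% (4.61 to 7.36) against 7.49% (6.51 to 8.57) and 7.98% (7.01 to 9.03). In G1 and S the regressing spleens were 0.296 and 0.188 points apart. S shares without Top_Spleen cells were 20.8%, 25.4% and 24.7%.

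The lower S share of the growing spleen was present outside the Dividing clusters. Within them the order was the opposite, with S calls at 72.3% of 65 cells (59.8 to 82.7) against 59.9% (53.1 to 66.5) and 53.2% (46.1 to 60.2). G2M calls within them made up 23.1% against 38.7% and 39.5%. Outside the Dividing clusters, 200 of 1127 cells of the growing spleen were called S, 17.7% (15.6 to 20.1), against 21.6% (19.9 to 23.3) and 22.4% (20.8 to 24.0). The growing spleen was lowest in each of the 7 clusters that are not Dividing. The gap was widest in Activated Exhausted cells, with 6 of 47 (12.8%, 4.83 to 25.7) against 25.2% (19.8 to 31.2) and 26.4% (20.6 to 32.8). Intermediate Activation cells had 13.3% (10.6 to 16.5) against 17.4% and 17.9%. Highest Activated cells, with 29.3%, 30.3% and 30.0%, and interferon-stimulated cells, with 10.96%, 15.7% and 11.03%, hardly differed from the nearer regressing spleen.

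With the same mix of clusters in all libraries, the S shares were 20.9%, 24.5% and 24.4%, nearly the values of each library's own mix. The G2M shares moved to 6.85%, 6.97% and 7.28%, so that the G2M difference of -1.86 percentage points was -0.278. With equal weight on quartiles of UMIs per cell, the S shares were 20.3%, 25.7% and 24.5%. In the highest quartile, S calls made up 19.8% of cells in the growing spleen and 33.1% and 31.4% in the regressing spleens. From the lowest quartile up, the others had 18.3%, 22.1% and 26.2%, then 20.7%, 24.0% and 20.8%, then 22.5%, 23.5% and 19.8%. Receptor labels were present on 65.7%, 32.6% and 54.7% of cells in the highest quartile, and on 80.1%, 66.5% and 78.6% in the third. The part of unlabelled cells in the S gap of the highest quartile was not tested. Among labelled cells of all quartiles, the S shares were 19.5%, 25.1% and 24.6%. Free RNA could also enter phase calls, and its part was not tested.

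**Figure D3:**
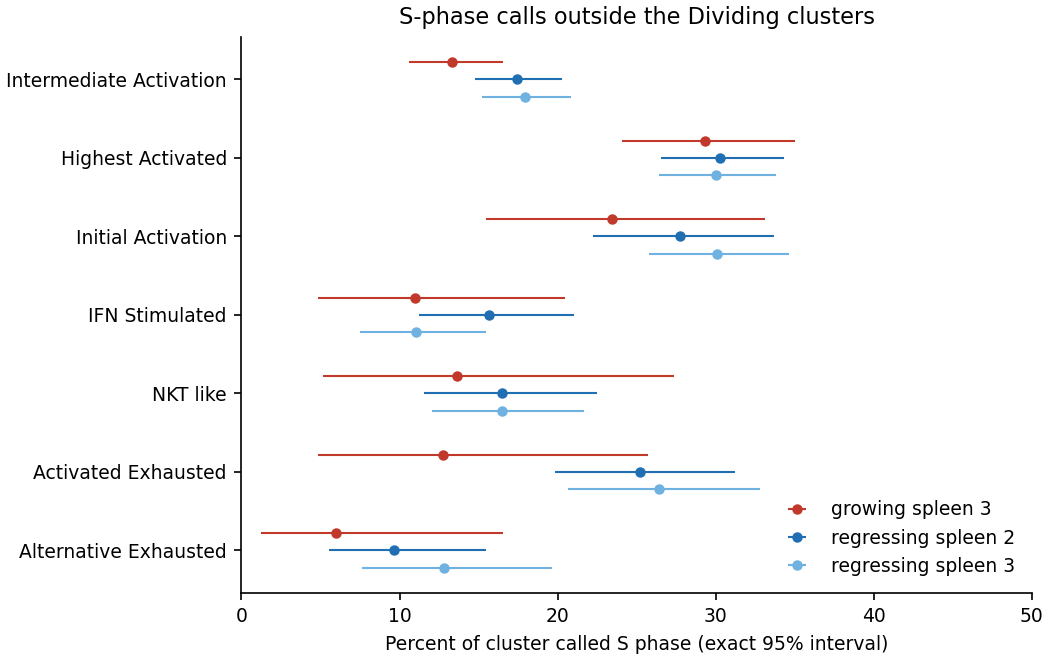
Percent of cells called in S phase in each cluster outside the Dividing ones, for the 3 spleen libraries, with exact 95% intervals. The growing spleen has the lowest point in each of the 7 clusters, with wide intervals, and stands at 12.8% in Activated Exhausted cells against 25.2% and 26.4%.

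Non-naive cells of the growing spleen held more UMIs. The median was 7787 UMIs per cell (quartiles 6059 and 9837) against 5212 (3829 and 7362) in regressing spleen 2 and 6635 (4818 and 9077) in regressing spleen 3. In naive cells of the same libraries the order was another, with medians of 5842, 4390 and 6354, so the growing spleen was above regressing spleen 3 only among non-naive cells. It was above both regressing spleens in 8 of the 10 non-naive clusters, all but Dividing 1 and Dividing 2. Of these 8, Dividing 3 rested on 9 cells of the growing spleen. The widest gap was in Initial Activation cells, with medians of 7864 against 3920 and 4643 UMIs. Activated Exhausted cells had 7786 against 4282 and 5449. Highest Activated cells, at 7969 against 5843 and 7964, were level with regressing spleen 3.

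Top_Spleen cells held fewer UMIs in the regressing spleens, with medians of 3911 and 4861 UMIs against 5354 and 7008 in the other labelled cells. In the growing spleen the 10 Top_Spleen cells had a median of 7933 against 7774. In the regressing spleens Top_Spleen cells lay more often than other labelled cells in the Exhausted and Initial Activation clusters. The part of the cluster mix in their lower UMIs was not tested. Without Top_Spleen cells the medians were 7787 UMIs in the growing spleen and 5588 and 7030 in the regressing spleens. The growing spleen was then above both in 7 of the 10 non-naive clusters. Highest Activated cells, at 7969 against 5870 and 7975, were no longer among them. The gap in Initial Activation cells stayed, at 7920 against 4297 and 4700, as did that in Activated Exhausted cells, at 7823 against 4639 and 6130.

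The number of genes seen per cell did not follow the UMIs. The medians were 2111 genes in the growing spleen, 1688 in regressing spleen 2 and 2093 in regressing spleen 3, so that the growing spleen and regressing spleen 3 differed by 18.5 genes. Without Top_Spleen cells the growing spleen, at 2110, lay between 1721 and 2130. Among cells of the third quartile of UMIs (6322 to 8756), the growing spleen had a median of 2064 genes, regressing spleen 2 had 2055 and regressing spleen 3 had 2218. In the highest quartile it had 2574 genes against 2776 and 2857. In all 4 quartiles it had fewer genes than regressing spleen 3 at similar UMIs.

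Mitochondrial genes gave a median of 3.21% of UMIs in non-naive cells of the growing spleen, 2.89% in regressing spleen 2 and 2.68% in regressing spleen 3. The growing spleen was highest in 9 of the 10 clusters, all but Dividing 1. In naive cells the medians were 3.25%, 3.20% and 2.93%. The share is a measure of RNA quality as well as of metabolism, and its part in the other differences was not tested.

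**Figure D4:**
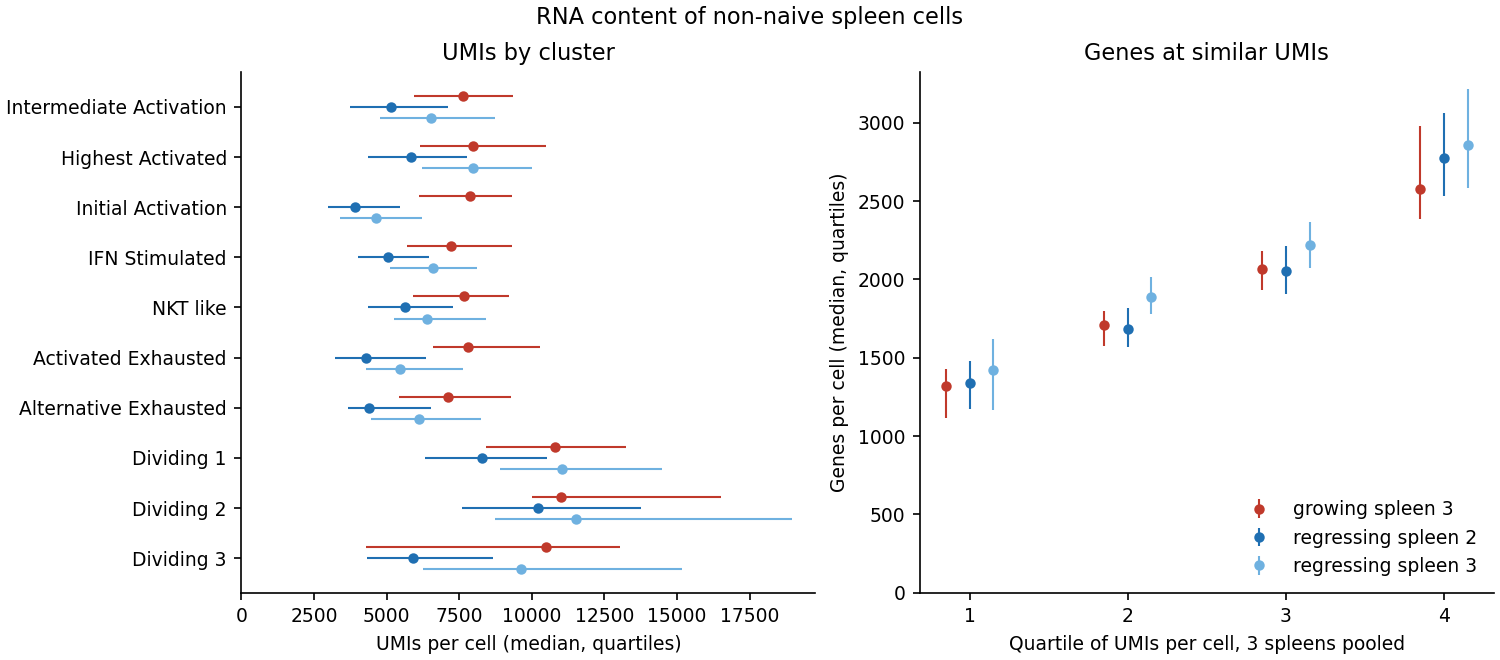
Median UMIs per cell by cluster (left) and median genes per cell in quartiles of UMIs (right) for the 3 spleen libraries, with the quartiles over cells as bars. Initial Activation shows 7864 UMIs in the growing spleen against 3920 and 4643, and in each quartile of UMIs the growing spleen has fewer genes than regressing spleen 3.

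On the same base of non-naive cells, the tumours differed between the states in another way for dividing cells and in the same direction for others. Dividing clusters held 26.0% ± 3.06 of cells in growing and 12.8% ± 1.82 in regressing tumours (SD, n = 3 each), higher in each growing library, whereas the growing spleen was lower than both regressing spleens. S-phase calls outside the Dividing clusters went the same way in both tissues, at 19.4% ± 0.986 in growing and 23.6% ± 1.06 in regressing tumours, without overlap. Interferon-stimulated cells did so too, at 3.48% ± 1.61 against 6.26% ± 0.469, without overlap. Intermediate Activation, the cluster that led in the growing spleen, was at 11.5% ± 1.92 against 11.3% ± 0.291 in tumours, with overlap. The first tumour of each state was made with the 3′ kit; among the 5′ libraries alone, growing minus regressing was 12.5 percentage points for dividing cells, -3.01 for interferon-stimulated cells and 0.991 for Intermediate Activation cells. The spleens and tumours of the same number may come from 1 mouse, and the difference between the tissues was not tested.

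**Figure D5:**
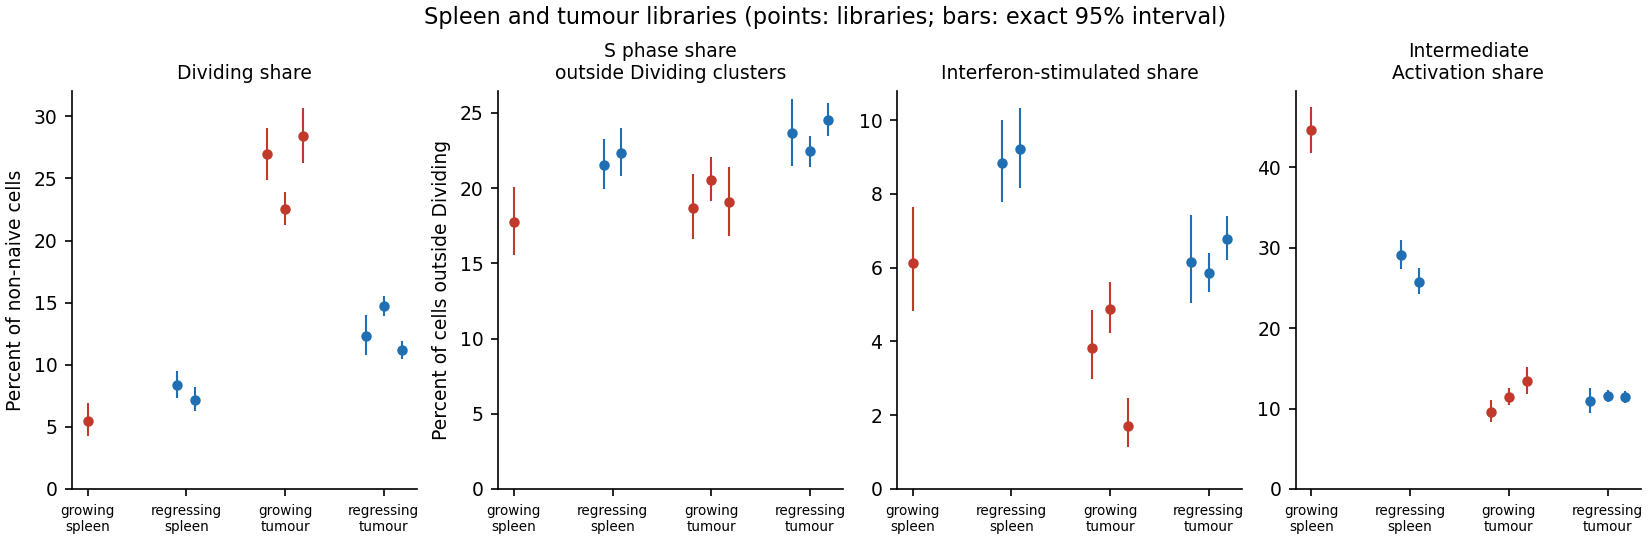
Shares in each spleen and tumour library on the base of non-naive cells (for S-phase calls, of non-naive cells outside the Dividing clusters), with exact 95% intervals. Dividing cells are low in the growing spleen and high in growing tumours, while S-phase calls outside the Dividing clusters and interferon-stimulated cells are lower in growing libraries of both tissues.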

How the data were processed

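Per the submitters' processing notes, the authors processed the reads with Cell Ranger; its version and the genome build were not given in the sources used here. The deposited per-cell table gives, per the file headers, UMIs and genes of each cell as unnormalised counts, the mitochondrial percent of UMIs, an S and a G2M score, and the authors' phase, cluster, clonotype and GLIPH labels. The phase call matched the rule of the 2 scores in 100% of cells. No cell was filtered here; the lowest number of genes was 501 and the highest mitochondrial share 9.83%. Doublets were not called, and their treatment by the authors was not given in the sources used here; dropping cells above the 99th percentile of UMIs was an alternative.

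Shares were computed per library with Python 3.11.15, pandas 2.3.3 and scipy 1.17.1, with exact 95% intervals; for a count of 0 the limit is 3 counts. GLIPH cover and Top_Spleen shares use cells with a receptor label. All 10 non-naive clusters and each GLIPH group with 5 or more cells in a spleen were to be named; smaller groups are given as counts. The cells, measures and base were chosen with earlier results of these data known. Common cluster mixes used the mean mix of the 3 libraries, which was checked on simulated data. UMIs could not be thinned, so quartiles of UMIs were used. Alternatives were the bases, depth and cluster weights and libraries left out that the closing section gives. The A223 variant table was not used.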

Additional observations from a re-analysis of the deposited data

Results flagged for a closer look

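Several measures of cell division went in opposite directions in the spleens and in the tumours on the base of non-naive cells: the growing spleen lay outside both regressing spleens on one side, and all growing tumours lay outside all regressing tumours on the other. The difference between the tissues was not tested. The Dividing share was -2.30 percentage points in spleens (growing minus the regressing mean) and 13.2 in tumours. For Dividing 2 it was -1.10 and 6.51, and for Dividing 3 -1.14 and 3.16. The G2M share was -1.86 in spleens and 5.64 in tumours, and the G1 share was 5.80 and -5.93. The Dividing share of the growing spleen lay between the regressing spleens (9.85% against 11.8% and 9.67%) outside the Intermediate Activation cluster. S-phase calls outside the Dividing clusters were lower in growing libraries of both tissues. The S share of all non-naive cells overlapped in tumours, with means of 27.6% in growing and 27.3% in regressing ones, and was lower in the growing spleen. Dividing 1 was higher in growing tumours, and in the growing spleen it lay between the regressing spleens. In spleens the G2M difference was -0.278 with the same mix of clusters in each library, and Dividing 3 rested on 9 cells in the growing spleen.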

How the results depend on the processing

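No paired analysis was possible because the growing and the regressing spleens share only the number 3, and no test was made. Differences are growing minus the regressing mean, in percentage points unless stated. Among 173 values under other settings than libraries left out, 138 moved by less than the spread used and 28 moved by more. The remaining 7, differences in which the growing spleen had lain outside both regressing spleens, turned. For spleen shares the spread was the larger of the SD of the regressing spleens and the half-width of the growing interval. For medians, 10% of the growing median took the place of the half-width. For tumour values it was the larger of the SDs of growing and regressing tumours. All alternatives with labelled cells without Top_Spleen, and with Intermediate Activation dropped, were chosen after seeing the data.

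Without Top_Spleen cells the exhausted share differed by -2.27 (main -5.52), NKT-like by -5.56, GLIPH cover by -2.17 (main -16.9) and Highest Activated by -0.789, which turned from 2.06. Among labelled cells without Top_Spleen, exhausted (1.96), Activated Exhausted (0.719), Alternative Exhausted (1.24) and Highest Activated (-4.74) turned, and interferon-stimulated (-5.12) and NKT-like (-6.41) widened. With all spleen cells as base, Highest Activated turned (-2.24), and 8 others moved: exhausted -3.41, Activated Exhausted -2.40, Dividing 3 -0.588, Intermediate Activation 1.64, NKT-like -2.42, GLIPH cover -7.69, Top_Spleen -8.10 and median UMIs 696. With Intermediate Activation dropped, dividing was -0.868, interferon-stimulated -1.38, Highest Activated 13.0 and Alternative Exhausted 0.238, which turned. With NKT-like cells dropped, GLIPH cover was -18.3 and Top_Spleen -19.9; over all non-naive cells they were -11.1 and -12.0. With equal weights over quartiles of UMIs, dividing was -3.99 and Top_Spleen -16.3. With the same mix of clusters, G2M was -0.278.

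With 1 regressing spleen left out in turn, Dividing 1, which lay between the regressing spleens (-0.0670), was 0.339 without regressing spleen 2. For every other spleen difference the growing spleen lay outside both regressing spleens. Leaving 1 of them out could therefore not change the sign, and only the sizes are informative. Exhausted ranged from -6.97 to -4.07, Intermediate Activation from 15.5 to 18.8, dividing from -2.89 to -1.72 and GLIPH cover from -17.6 to -16.1. Initial Activation was -6.89 without regressing spleen 2 and -1.35 without regressing spleen 3, median UMIs 1152 and 2575, and median genes 18.5 and 423.5. Leaving out the growing spleen leaves no comparison. In tumours the dividing difference stayed between 12.0 and 14.9; the exhausted one, which overlapped, ran from -4.98 to 3.90.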
